A study of Homo sapiens with 18 samples.

Results

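The ribosomal proteins, which build the small and large subunits of the cytosolic ribosome, and the initiation and elongation factors, which load the ribosome onto mRNA and move it along, were described in UMRC2 cells, a human clear cell renal carcinoma line. The genes were taken by symbol from the deposited RNA-seq table. Names had to start with RPL or RPS followed by a digit, A or P0 to P2, or with EIF or EEF followed by a digit, and S6 kinases and pseudogene names were left out. This gave 67 of the 1242 listed genes, namely 36 large-subunit proteins, 16 small-subunit proteins, 11 initiation factors, 3 elongation factors and the initiation repressor EIF4EBP1. The cells carried the hairpin shFTO#5 or shFTO#2, both against FTO, an enzyme that removes methyl groups from RNA, or the hairpin shControl. Each group had 2 libraries of total RNA, and all cells were grown in the same serum-supplemented medium. The labels say neither that a line was a clone nor that replicates were separate cultures, so every error and p-value below covers the variation between libraries, which may be only technical.

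Ribosomal protein genes are transcribed from unlinked loci, yet their products are needed in equal numbers, because each ribosome holds a single copy of most of them. In human cells many of their mRNAs, and those of the elongation factors, begin with a cytosine followed by an unbroken run of pyrimidines. This terminal oligopyrimidine (TOP) motif places their translation under the kinase mTOR, partly through the repressor EIF4EBP1 and the RNA-binding protein LARP1. Initiation factors bring the cap, the small subunit and the initiator tRNA together, and most of their mRNAs are not classed as TOP mRNAs.

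The first transcribed bases are shown for genes of each kind, since the start of the mRNA is what these families are best known to share. Each window runs from 10 bases before to 20 bases into the annotated RefSeq transcript (GRCh38.p14), in the direction of transcription. Capitals mark the pyrimidine tract, defined as a C at the first transcribed base followed by at least 4 bases that are each C or T. It was read only on the strand that has the sequence of the mRNA.
RPL38, chr17:74203668-74203697, + strand: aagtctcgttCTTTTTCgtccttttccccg
RPS3A, chr4:151099618-151099647, + strand: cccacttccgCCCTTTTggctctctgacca
RPS18, chr6:33272065-33272094, + strand: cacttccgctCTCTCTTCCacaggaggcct
RPS6, chr9:19380217-19380246, - strand: gaagttggccCTCTTTTCCgtggcgcctcg
EEF1A1, chr6:73521013-73521042, - strand: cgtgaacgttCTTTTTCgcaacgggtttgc
EEF2, chr19:3985444-3985473, - strand: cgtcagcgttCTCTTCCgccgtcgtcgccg
EIF3D, chr22:36529147-36529176, - strand: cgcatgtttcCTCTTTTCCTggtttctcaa
EIF4B, chr12:53006446-53006475, + strand: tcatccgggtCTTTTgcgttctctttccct
EIF3B, chr7:2354817-2354846, + strand: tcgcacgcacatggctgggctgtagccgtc
EIF2B5, chr3:184135348-184135377, + strand: cagcttccttgcggaagtggtgaccgtgag
RPL9, chr4:39458903-39458932, - strand: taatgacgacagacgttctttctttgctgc

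RefSeq start sequences were found for 56 of the 67 genes. A tract stood at an annotated start of 21 of 31 large-subunit genes (67.7%), 11 of 14 small-subunit genes (78.6%) and all 3 elongation factor genes. Among the initiation factors it was found in 2 of 8 (25%), and these were EIF3D and EIF4B. The tract was found in 70 of 896 other listed genes (7.81%) and in 1404 of 27305 RefSeq genes with a start sequence (5.14%). A gene with several annotated starts has more chances to match, and among genes with 1 annotated start the share was 27 of 36 ribosomal protein genes (75%), against 4.83% of other listed genes and 3.98% of RefSeq genes. RPL9 had no match in this window, where the pyrimidine run lies further inside the annotated transcript. The genes without an entry included EIF3A, EIF3G, EIF3H, EIF4EBP1, RPL5, RPL7, RPL8, RPL23, RPL37 and RPS2.

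**Figure D1:**
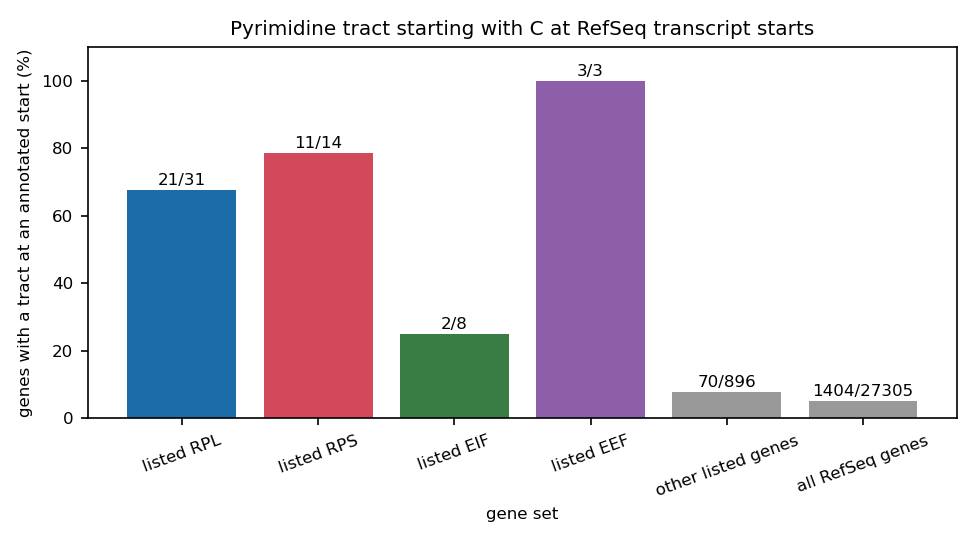
Share of genes (%, bar height) with a C-initiated pyrimidine tract at an annotated RefSeq start, for the listed RPL, RPS, EIF and EEF genes, the other listed genes and all RefSeq genes with a start sequence; the fractions above the bars are genes with a tract over genes with a sequence. Between 67.7% and 100% of the RPL, RPS and EEF genes had a tract, against 25% of the EIF genes and 7.81% of the other listed genes.

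FTO itself had 0.555 and 0.526 FPKM with shFTO#5 and 0.882 and 0.720 FPKM with shFTO#2, against 1.99 and 2.37 FPKM with shControl. FPKM is the number of reads divided by gene length and library total, on a fixed scale, and the 6 libraries held between 14548533 and 18184675 reads. The listed genes include 5 of 10 epithelial and renal tubule markers (KRT8, KRT18, PAX8, PAX2 and LRP2) and 0 of 11 markers of fibroblasts, endothelium or immune cells. Only genes called with shFTO#5 are listed, so these counts do not say whether an unlisted marker was expressed. The keratin gene KRT8 had 483 and 488 FPKM with shFTO#5, against 439.6 and 418 FPKM with shControl, and the renal transcription factor gene PAX8 had 90.2 and 86.9 FPKM with shFTO#5, against 79.3 and 76.4 FPKM with shControl. KRT18 was also higher with shFTO#5 by the authors' deposited table, and PAX2 and LRP2 were lower. Their part in the results below was not tested. Each of the 67 genes had at least 985 reads in each shFTO#5 and shControl library, so counting error was small, but replicates differed by more than counting error. Over these genes the chi-square per degree of freedom between replicates was 4.20 for shFTO#5 and 5.77 for shControl. In bulk RNA, more transcript per cell and a lower amount of all other RNA cannot be told apart, nor can fewer cells of a type and less RNA per cell.

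In cells with shFTO#5, all 36 large-subunit genes, all 16 small-subunit genes, all 11 initiation factors, all 3 elongation factors and EIF4EBP1 were higher than in shControl cells, and none of the 67 was lower. The rise was small and narrow in range, with a fold of mean FPKM between 1.04 and 1.33 and a median of 1.13. Being past the authors' threshold of an adjusted p under 0.05 was the condition for entering the table, so it is no finding here. By the authors' deposited p-values, 13.0% of 9551 genes tested passed, 8.18% as higher and 4.83% as lower, and 62.9% of the listed genes were higher. A limma fit over all 1242 listed genes on log2(FPKM + 1) placed 67 of the 67 genes as higher at an adjusted p under 0.05 and 0 as lower, also 0 at an unadjusted p, where 62.6% of listed genes were higher and 37.1% lower. The limma adjusted p-values below are over genes already called, so passing there is no separate evidence. The authors' deposited adjusted p, from a test not named, was larger for EIF2B5 (0.0473, against 0.00119 in limma). It was smaller for RPL38 (2.28e-24, against 1.09e-10 in limma). The libraries of the groups did not overlap for any of the 67, which was also true of 100.0% of listed genes. With each library centred on the median listed gene, which lowers the changes with shFTO#5 by 0.09 on the log2 scale, 42 of the 67 were still called higher and 0 lower, 61 having a positive change, where 43.0% of listed genes were called higher and 37.1% lower. With quantile normalization 38 were called higher and 2 lower, where 44.3% of listed genes were called higher and 36.6% lower.

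The table held 36 of the 53 annotated coding genes whose names meet the rule for the large subunit (67.9%) and 16 of 34 for the small subunit (47.1%). It held 11 of 49 for the initiation factors (22.4%), 3 of 7 for the elongation factors (42.9%) and 1 of 13 for regulators of these factors (7.69%). Of all genes the authors tested, 13.0% of 9551 were listed. The annotated names can include genes that were not tested, so these shares have unlike bases. Genes outside the table were not analysed here. The median log2 change with shFTO#5 was 0.19 for large-subunit genes, 0.19 for small-subunit genes, 0.16 for initiation factors and 0.18 for elongation factors, beside 0.15 for all listed genes and 0.22 for the 714 other listed genes that were higher.

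RPL38, a large-subunit protein known in mice for its part in skeletal patterning, had 237 and 239 FPKM with shFTO#5, against 176 and 181 FPKM with shControl (ENSG00000172809, chr17:74203582-74210655, + strand, GRCh38). Both knockdown libraries lay above both control libraries, but the groups did not overlap in 100.0% of listed genes. The means differed 1.33-fold, with a log2 change of 0.41 ± 0.03 (SE; adjusted p = 1.09e-10, limma). This was the largest change among the 67 genes. Within the large subunit RPL9 followed, with 244 and 245 FPKM with shFTO#5, against 204 and 201 FPKM with shControl (log2 0.27 ± 0.03; adjusted p = 5.9e-08, limma; chr4:39452521-39458949, - strand). RPL32 had 230.3 and 235 FPKM with shFTO#5, against 194 and 196 FPKM with shControl (log2 0.25 ± 0.03; adjusted p = 1.42e-07, limma; chr3:12834485-12841588, - strand). In RPL9 and RPL32 the gap between the groups was several times the gap within either group.

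The large-subunit gene with the highest level per length was RPL8, whose protein reaches the peptidyl transferase centre. It had 2773 and 2921 FPKM with shFTO#5, against 2553 and 2623 FPKM with shControl (log2 0.14 ± 0.03; adjusted p = 0.000432, limma). The 2 knockdown libraries lay about as far apart as the lower of them lay from the higher control library. The lowest level was that of RPL22L1, a paralogue of RPL22, with 35.7 and 37.7 FPKM with shFTO#5, against 31.9 and 31.5 FPKM with shControl (log2 0.21 ± 0.05; adjusted p = 0.000224, limma). RPL22 itself changed by 0.17 ± 0.04, at 94.1 and 92.6 FPKM with shFTO#5, against 79.5 and 86.1 FPKM with shControl.

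RPL5 and RPL11, which enter the large subunit together and can bind the p53 regulator MDM2 when free, were both higher. RPL5 had 457 and 449 FPKM with shFTO#5, against 406 and 403 FPKM with shControl (log2 0.16 ± 0.03). RPL11 had 558 and 582 FPKM with shFTO#5, against 490 and 493 FPKM with shControl (log2 0.21 ± 0.03). RPL3, at the peptidyl transferase centre, changed by 0.12 ± 0.03, and RPL4, which lines the exit tunnel, by 0.19 ± 0.03. Changes of RPL7A (0.20 ± 0.03), RPL29 (0.22 ± 0.03) and RPL41 (0.17 ± 0.03) lay near the median of the large subunit.

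RPL10, RPL19, RPL13 and RPLP1 were among the large-subunit genes with the smallest changes. RPL10, which joins the subunit late and is needed for subunit joining, had 466 and 464 FPKM with shFTO#5, against 449 and 442 FPKM with shControl (log2 0.06 ± 0.03; adjusted p = 0.0427, limma). RPL19 had 702 and 727 FPKM with shFTO#5, against 676 and 688 FPKM with shControl (log2 0.07 ± 0.03). RPL13 had 538 and 561 FPKM with shFTO#5, against 517 and 529 FPKM with shControl (log2 0.07 ± 0.03). RPLP1, a protein of the stalk that recruits elongation factors, had 520 and 530 FPKM with shFTO#5, against 486 and 493 FPKM with shControl (log2 0.10 ± 0.03). The direction of RPL10, RPL13 and RPL19 depended on the scaling, with changes of -0.027, -0.016 and -0.021 after centring, and after quantile normalization RPL10 was at -0.074 and RPL13 at -0.015.

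Among small-subunit proteins the largest change was that of RPS3A, which lies near the mRNA exit channel (chr4:151099573-151104652, + strand). It had 138 and 140.1 FPKM with shFTO#5, against 111 and 114 FPKM with shControl (log2 0.30 ± 0.03; adjusted p = 4.13e-08, limma). RPS18, of the subunit head, had 861 and 888 FPKM with shFTO#5, against 706 and 731 FPKM with shControl (log2 0.28 ± 0.03; adjusted p = 2.52e-08, limma; chr6:33272010-33276510, + strand). RPS7 had the lowest level per length of the small subunit, with 77.1 and 78.6 FPKM with shFTO#5, against 66.0 and 64.2 FPKM with shControl (log2 0.25 ± 0.04; adjusted p = 1.66e-06, limma). For these 3 genes the difference between the groups was at least several times the difference between replicates.

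RPS2, at the mRNA entry channel, had the highest level of the small subunit and a small change. It had 1295 and 1376 FPKM with shFTO#5, against 1261 and 1270.3 FPKM with shControl (log2 0.08 ± 0.03; adjusted p = 0.024, limma). The knockdown replicates of RPS2 lay further apart than the lower of them lay from the controls, and after centring its change was -0.012. RPS16 had the smallest change, with 387 and 395 FPKM with shFTO#5, against 372 and 374 FPKM with shControl (log2 0.07 ± 0.03; adjusted p = 0.0321, limma). Its change was -0.022 after centring and -0.065 after quantile normalization.

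RPS6, the small-subunit protein that S6 kinase phosphorylates downstream of mTOR, had 618 and 631 FPKM with shFTO#5, against 536 and 529 FPKM with shControl (log2 0.23 ± 0.03; adjusted p = 2.71e-07, limma). RPS3, at the mRNA entry channel and also known for a part in DNA repair, had 885 and 887 FPKM with shFTO#5, against 778 and 773 FPKM with shControl (log2 0.19 ± 0.03). RPS14 changed by 0.19 ± 0.03. RPS27A, made as a fusion with ubiquitin, changed by 0.13 ± 0.03, and RPSA, also known as the laminin receptor, by 0.09 ± 0.03, both below the median of the subunit.

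**Figure D2:**
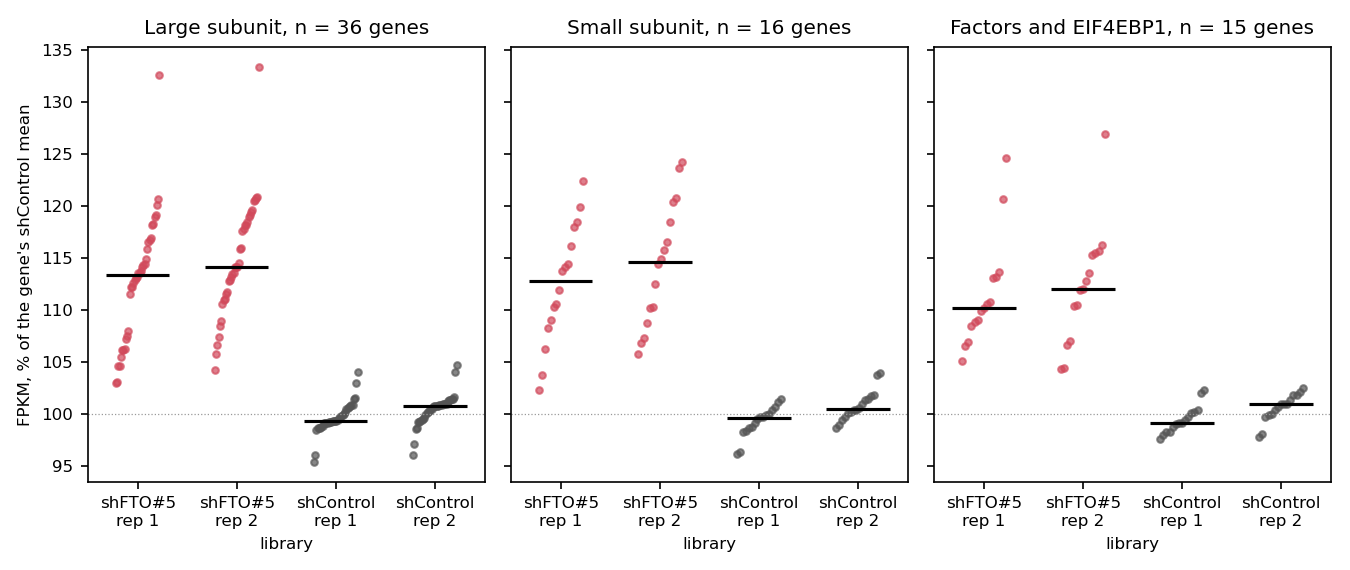
FPKM of each gene in each library as a percent of that gene's shControl mean (points; black bars are medians of the genes), for large-subunit genes, small-subunit genes, and the factors with EIF4EBP1. In both shFTO#5 libraries the points lie above 100%, and in both shControl libraries they scatter around it.

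Subunits of eIF3, a large factor that binds the small subunit, made up 5 of the 11 initiation factors and spanned the whole range of their changes. EIF3D, a subunit that can bind the mRNA cap, had 141 and 144 FPKM with shFTO#5, against 112.4 and 114 FPKM with shControl (log2 0.33 ± 0.03; adjusted p = 9.25e-09, limma; ENSG00000100353, chr22:36510850-36529436, - strand). EIF3G, an RNA-binding subunit, had 122 and 124 FPKM with shFTO#5, against 105 and 109.8 FPKM with shControl (log2 0.19 ± 0.03; adjusted p = 2.29e-05, limma). EIF3H changed by 0.13 ± 0.04. The core subunits EIF3A and EIF3B changed by 0.09 ± 0.03 and 0.07 ± 0.03. EIF3B had 226 and 225 FPKM with shFTO#5, against 215 and 216 FPKM with shControl, and its change was -0.023 after centring. After quantile normalization EIF3A was at -0.0022 and EIF3B at -0.0054.

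EIF4G1, the scaffold that joins the cap-binding protein to eIF3, had the highest level of the initiation factors. It had 269.7 and 281 FPKM with shFTO#5, against 244 and 243 FPKM with shControl (log2 0.18 ± 0.03; adjusted p = 1.6e-05, limma). EIF4B and EIF4H, which assist the helicase eIF4A, changed by 0.12 ± 0.04 and 0.09 ± 0.03. EIF2B5, the catalytic subunit of the factor that recharges eIF2 with GTP, had the lowest level, with 20.9 and 19.4 FPKM with shFTO#5, against 17.1 and 17.5 FPKM with shControl (log2 0.21 ± 0.05; adjusted p = 0.00119, limma). EIF5B, which joins the subunits, changed by 0.16 ± 0.05. EIF6, which keeps free large subunits from joining, changed by 0.18 ± 0.04, with 97.1 and 101.5 FPKM with shFTO#5, against 86.2 and 89.4 FPKM with shControl.

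EEF1A1, which brings aminoacyl-tRNA to the ribosome, had 1402 and 1391 FPKM with shFTO#5, against 1262 and 1206 FPKM with shControl (log2 0.18 ± 0.03; adjusted p = 1.29e-05, limma). EEF1B2, part of its nucleotide exchange factor, had 277 and 284 FPKM with shFTO#5, against 242 and 247 FPKM with shControl (log2 0.20 ± 0.03; adjusted p = 3.55e-06, limma). EEF2, which moves the ribosome by a codon, had 907 and 919 FPKM with shFTO#5, against 827 and 837 FPKM with shControl (log2 0.13 ± 0.03; adjusted p = 0.000158, limma). All 3 genes carried the tract. Their values were higher in both shFTO#5 libraries than in either shControl library, but the groups did not overlap in 100.0% of listed genes. EIF4EBP1, the mTOR-controlled repressor that binds the cap-binding protein eIF4E, had 217 and 227 FPKM with shFTO#5, against 203 and 203 FPKM with shControl (log2 0.13 ± 0.03; adjusted p = 0.000569, limma).

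Summed over the listed genes, the change was close to equal across subclasses. All 67 genes had passed the authors' threshold and were higher, so ratios above 1 and a larger share of reads follow from that. The sums cover only the listed part of each subclass, so they do not describe whole subclasses. The 36 large-subunit genes summed to 19161 ± 373 FPKM with shFTO#5 and 17090 ± 83.2 FPKM with shControl (SD, n = 2 each), a ratio of 1.12. The 16 small-subunit genes summed to 8169 ± 114 FPKM with shFTO#5 and 7310 ± 88.1 FPKM with shControl, a ratio of 1.12. The ratio was 1.11 for the initiation factors and 1.12 for the elongation factors, and without the gene of highest level in each subclass the ratios lay between 1.10 and 1.13. The 67 genes together took 5.75% and 5.84% of all reads in the shFTO#5 libraries, against 5.16% and 5.18% in the shControl libraries. All listed genes together took 33.7% and 34.0% of reads with shFTO#5, against 32.1% and 32.4% with shControl.

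Changes of ribosomal protein genes were alike in median with and without a tract match at an annotated start. The median log2 change was 0.19 in the 32 genes with a tract, ranging between 0.06 and 0.41. It was 0.19 in the 13 genes without a match, ranging between 0.07 and 0.27. Some genes without a match, such as RPL9, RPL4 and RPL10A, have a pyrimidine run further inside the annotated transcript. The split therefore does not separate TOP mRNAs from others. Across the 52 listed ribosomal protein genes, those at higher FPKM with shControl tended to smaller changes (Pearson r = -0.40, Spearman rho = -0.39). The genes share 4 libraries and are no independent replicates. Smaller changes could pass the authors' threshold at higher levels, and the shControl level is itself part of the change. For these reasons nothing about these genes is concluded from the relation. Many of these genes have processed pseudogenes of near-identical sequence, 812 by name for the 67 genes, with which reads can be shared, and the labels do not say how the counting treated such reads. The median fold of mean FPKM was 1.16 for the 27 ribosomal protein genes with at least 10 named pseudogenes and 1.13 for the 25 with fewer. The deposited gene lengths, on which levels between genes depend, were longer than the typical coding transcript for many of these genes, for example 5429 bases for RPS7, 7.11 times the median of its coding transcripts. The 20 genes with a length ratio of at least 2 had a median fold of 1.15, and the other 32 had 1.13.

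The second hairpin gave values for 37 of the 67 genes, namely 25 large-subunit genes, 9 small-subunit genes, EIF3D, EEF1A1 and EIF4EBP1. The shFTO#2 columns are out of row order in the table, and their values were tied to genes by whole read counts and gene order, which placed 561 of 766 entries. Only genes the authors had called with shFTO#2 stand in these columns, 7.63% of 10038 tested, 4.17% as higher. An entry could be placed only on a gene listed for shFTO#5, and only where its level went the way of the authors' fold change. The other genes of the 67 were either not called with shFTO#2 or not placed, which cannot be told apart here. Both comparisons share the shControl libraries, so the values are set side by side and the second is no separate evidence of direction. As deposited, all 37 genes were higher with shFTO#2 and passed limma's adjusted p under 0.05 over the 561 genes, where 62.9% were higher. Their median log2 change was 0.16, between 0.09 and 0.33, beside 0.17 for all assigned genes and 0.29 for the 316 other assigned genes that were higher. Centring on the median of these 561 genes lowered the changes with shFTO#2 by 0.15. The centring for shFTO#5 used all 1242 listed genes, so centred values and counts are not directly comparable between the hairpins. Relative to the shift of 0.15 the median of the 37 was 0.01, with 22 genes higher and 15 lower, and 2 were called higher. Over all 561 genes 353 were called higher and 208 lower as deposited, and 191 higher and 208 lower when centred. With quantile normalization 18 of the 37 were called higher, a share close to the 47.4% of all 561 genes.

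RPL38 had 235 and 215 FPKM with shFTO#2, a log2 change of 0.33 ± 0.04, beside 0.41 ± 0.03 with shFTO#5. Its 2 shFTO#2 libraries lay further apart than the shFTO#5 libraries, and both lay above the controls. RPS3A had 139 and 131 FPKM with shFTO#2 (0.26 ± 0.04), beside 0.30 ± 0.03 with shFTO#5. RPS18 had 849.9 and 827 FPKM with shFTO#2 (0.22 ± 0.03), beside 0.28 ± 0.03 with shFTO#5. When centred, the changes with shFTO#2 were 0.18 for RPL38, 0.11 for RPS3A and 0.07 for RPS18, and those of RPL38 and RPS3A were the 2 that passed. EEF1A1 had 1337 and 1290.1 FPKM with shFTO#2, a log2 change of 0.09 ± 0.03 as deposited and -0.059 when centred. EIF4EBP1 had 224 and 233 FPKM with shFTO#2 (0.17 ± 0.03), beside 0.13 ± 0.03 with shFTO#5.

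A direct test of shFTO#5 against shFTO#2 passed for 3 of the 37 genes, where 13.7% of the 561 genes passed. EIF3D had 141 and 144 FPKM with shFTO#5 and 126 and 128 FPKM with shFTO#2, against 112.4 and 114 FPKM with shControl. RPL32 had 230.3 and 235 FPKM with shFTO#5 and 219 and 212 FPKM with shFTO#2, against 194 and 196 FPKM with shControl. RPL29 had 631 and 653 FPKM with shFTO#5 and 605 and 597 FPKM with shFTO#2, against 549 and 557 FPKM with shControl. In these 3 genes the groups did not overlap and shFTO#2 lay between the others. The same order held in other genes of the 37, such as RPL24 and RPS6, and its share over the 561 genes was not counted. Libraries of shFTO#5 and shControl did not overlap in 100.0% of listed genes. For the other 34 genes the test did not pass, which does not show that the hairpins acted alike. RPL3, for example, had a difference of 0.0041 ± 0.023 on the log2 scale.

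**Figure D3:**
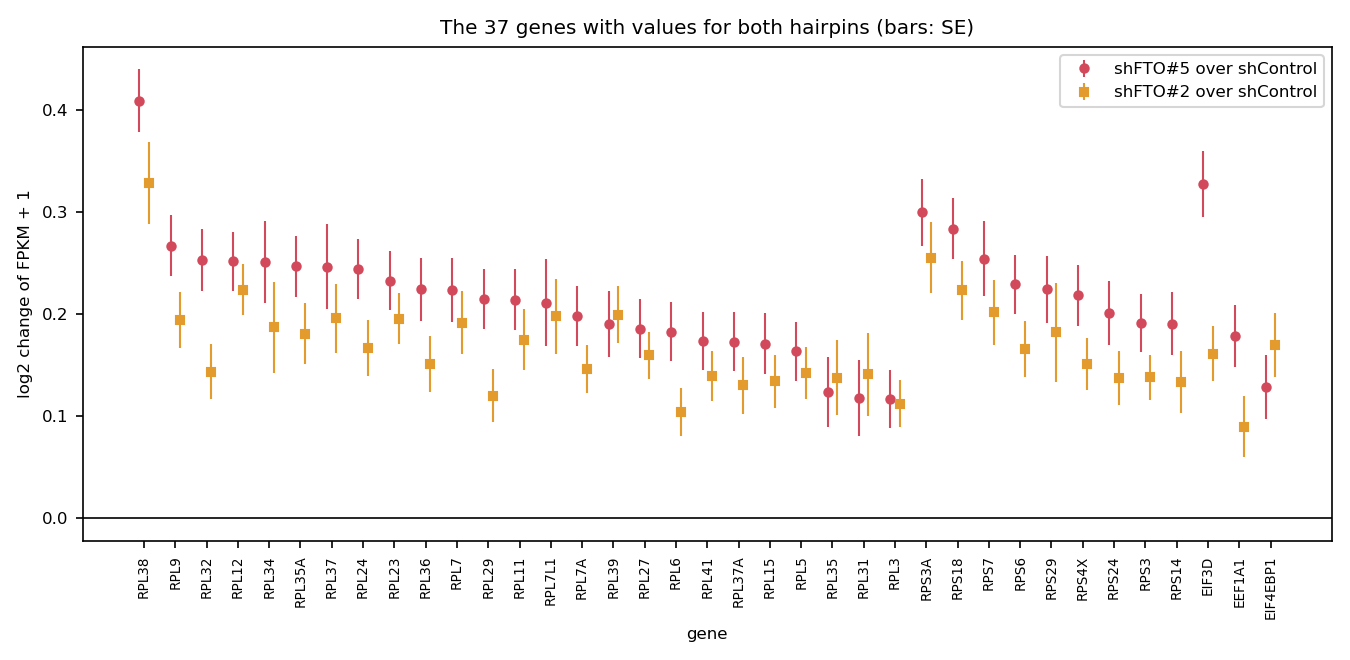
Log2 change of FPKM + 1 over shControl for the 37 genes with values for both hairpins (circles shFTO#5, squares shFTO#2; bars are SE from limma, 2 libraries per group), as deposited. The changes lie between 0.12 and 0.41 with shFTO#5 and between 0.09 and 0.33 with shFTO#2. Centring lowers the shFTO#2 values by 0.15, with 561 genes as reference, and the shFTO#5 values by 0.09, with 1242 genes as reference. These shifts rest on unlike gene sets and are not directly comparable.

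Other genes of protein synthesis in the table were counted by list, with limma's adjusted p under 0.05. The counts stand beside 62.6% of all listed genes called higher and 37.1% lower as deposited, 43.0% higher when centred and 44.3% higher with quantile normalization, and several of the lists are short. In ribosome biogenesis and rRNA synthesis, 23 of 23 listed genes rose with shFTO#5 and 0 fell, with a median log2 change of 0.22, and 23 kept a positive change when centred (17 called) or after quantile normalization (19 called). NAT10, which acetylates ribosomal RNA, had 31.9 and 31.4 FPKM with shFTO#5, against 23.7 and 23.5 FPKM with shControl (log2 0.41 ± 0.05). NOLC1, a nucleolar protein, had 64.4 and 63.5 FPKM with shFTO#5, against 49.2 and 52.0 FPKM with shControl (log2 0.33 ± 0.04). Of the aminoacyl-tRNA synthetases, 6 of 6 listed genes rose, with a median of 0.20, and 6 were positive when centred, with 3 called, a share near that of all listed genes. The largest change was that of IARS2, a mitochondrial enzyme (0.38 ± 0.04). GNB2L1, the ribosomal scaffold also named RACK1, had 956 and 991 FPKM with shFTO#5, against 815 and 805 FPKM with shControl (log2 0.26 ± 0.03).

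The partners of the ribosome in termination, nascent chain handling and mRNA binding had 5 of 5 listed genes higher, with a median of 0.18, and 5 were positive when centred (3 called) and after quantile normalization (2 called, a share near that of all listed genes). NACA, of the nascent polypeptide-associated complex, changed by 0.29 ± 0.04 and SERBP1, an mRNA-binding protein of the ribosome, by 0.29 ± 0.04. Of the mitochondrial ribosomal proteins, 7 of 8 rose and 1 fell, as they did when centred and after quantile normalization. MRPL35 had 10.7 and 11 FPKM with shFTO#5, against 7.52 and 6.82 FPKM with shControl (log2 0.54 ± 0.06). MRPL34 had 30.1 and 28.1 FPKM with shFTO#5, against 39.7 and 40.1 FPKM with shControl (log2 -0.44 ± 0.05). The mitochondrial elongation factor TUFM had the largest change among the genes named here, with 242 and 248 FPKM with shFTO#5, against 28.3 and 31.1 FPKM with shControl (log2 3.0 ± 0.04). GFM1, its partner in elongation, had 22.1 and 22.5 FPKM with shFTO#5, against 19.0 and 17.2 FPKM with shControl (log2 0.29 ± 0.06). The only listed gene of the mTOR and S6 kinase branch was MLST8, a subunit of the mTOR complexes, which had 46.7 and 49.995 FPKM with shFTO#5, against 59.8 and 57.0 FPKM with shControl (log2 -0.27 ± 0.04).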

How the data were processed

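The 6 RNA-seq libraries were grouped by their sample titles, 2 per group. The 12 m6A input and immunoprecipitation libraries of the 18 samples were not analysed here. The submitters' processing notes list hg38, Trim Galore 0.4.2, STAR and RSEM with no roles. No source used here gives the annotation, the strand setting or the test. The authors deposited FPKM and gene lengths, per the file headers, for genes they had called in the shFTO#5 comparison. The log2 fold changes, like the p-values raw and adjusted, are the authors' deposited values. Their deposited sign is control over knockdown and was reversed. It then matched the FPKM means in 1242 of 1242 genes. How many genes had been tested was worked out from each adjusted p, its rank and its raw p.

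FPKM times length gave whole reads (tolerance 1e-05) and so library totals. The shFTO#2 entries fill 766 lines in an order of their own. They were tied to genes where both libraries gave whole reads, the level fitted the authors' fold change and gene order was kept, which placed 561 (73.2%), 21 of them with a further candidate. The 205 other entries were left out.

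Changes were fitted with limma 3.58.1 (R 4.3.3, trended eBayes) on log2(FPKM + 1) for genes at 1 FPKM or more in at least 2 libraries, with Benjamini-Hochberg adjustment over all genes fitted. The shFTO#5 fit used 4 libraries and 1242 genes, and the others used 6 libraries and 561 genes. The procedure was tested on simulated data. Since listed genes had already passed the authors' test, the fit gives errors and ranks, not new calls. Coordinates and pseudogene names are from GENCODE v29 (GRCh38), matched by gene ID for 67 of 67 genes, and start sequences from RefSeq. Within each subclass the genes given in full are the 3 with the largest change and those with the highest and lowest level, and a subclass of up to 5 is given whole. In the other lists the 2 with the largest change are named, except where a gene is not reported here. Further genes were named for their role after their values were seen. The genes and lists were chosen with earlier results of these data known.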

Additional observations from a re-analysis of the deposited data

Results flagged for a closer look

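The log2 change differed between the hairpins in 3 of the 37 genes, by limma's test of the difference itself over 561 genes. Of all 561 genes 13.7% passed, so passing was not particular to these genes. For EIF3D the change with shFTO#5 was larger than that with shFTO#2 by 0.17 ± 0.03 (SE; adjusted p = 0.00865, limma). For RPL32 the difference was 0.11 ± 0.03 (adjusted p = 0.0357, limma), and for RPL29 it was 0.095 ± 0.026 (adjusted p = 0.0473, limma). With 1 library left out in turn, EIF3D passed in 4 of 6 fits, RPL32 in 1 of 6 and RPL29 in 0 of 6. The fits in which EIF3D did not pass were those with a single shFTO#5 library, with differences of 0.18 (adjusted p = 0.0841, limma) without replicate 1 and 0.15 (adjusted p = 0.0991, limma) without replicate 2. With quantile normalization the difference was 0.16 for EIF3D, 0.085 for RPL32 and 0.091 for RPL29, and EIF3D and RPL35A, a gene named after its value was seen, were the 2 of the 37 that passed.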

How the results depend on the processing

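With shFTO#5, 67 genes were called higher as deposited. When centred on all 1242 listed genes the count was 42. For shFTO#2 the centring used the 561 assigned genes, so centred counts are not directly comparable between the hairpins. With quantile normalization the shFTO#5 count was 38, and 2 genes were called lower. Scaling by the genes outside the group gave 57, no intensity trend 59, and a pseudocount of 0.1, no filter, or the replicate block 67 each. Scaling by the reads outside the listed genes, chosen after seeing the data, gave 67. Leaving out a library in turn gave between 56 and 61, with 0 lower. With shFTO#2 the count of 37 became 2 when centred and 18 with quantile normalization, and lay between 35 and 37 with a library left out. The hairpin difference, passing in 3 genes, passed in 12 when centred, 5 with the replicate block and 1 without the trend (chosen after seeing the data), and in between 0 and 3 with a library left out. The 5 are EIF3D, RPL32, RPL29, RPL6 and EEF1A1. Without either shControl library, or without shFTO#2 replicate 2, 1 gene passed, and without either shFTO#5 library 0 passed, with 8 and 6 at an unadjusted p under 0.05 in limma. Where a group was left with 1 library, it was assumed to vary like the others. Replicate numbers are not said in the labels to pair libraries, and same-numbered deviations correlated at 0.09 (shFTO#5 and shControl) and 0.22 (shFTO#2 and shControl). Changes with shFTO#5 that turned negative when centred were EIF3B -0.023, RPL10 -0.027, RPL13 -0.016, RPL19 -0.021, RPS16 -0.022 and RPS2 -0.012. With quantile normalization they were EIF3A -0.0022, EIF3B -0.0054, RPL10 -0.074, RPL13 -0.015, RPS16 -0.065 and RPS27 -0.008. With shFTO#2, centring gave EEF1A1 -0.059, RPL6 -0.045, RPL3 -0.037, RPL29 -0.029, RPL37A -0.019, RPS14 -0.015, RPL15 -0.015, RPS24 -0.012, RPL35 -0.011, RPS3 -0.011, RPL41 -0.0094, RPL31 -0.0079, RPL5 -0.0067, RPL32 -0.0055 and RPL7A -0.0028. Quantile normalization gave RPS14 -0.024, with RPL6 and RPS4X at 0 within rounding. The cause was not tested. The table lists called genes only, so no unchanged gene can serve as a reference for scaling, and the sign of these small changes rests on the scaling.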
